A study of Homo sapiens with 28 samples.

Results

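The regions described here are stretches of the genome with an H3K27ac peak in SW872 cells, an established human liposarcoma line. Each was among the best-ranked peaks of both libraries of one side and of neither library of the other. A weaker peak could still lie there in the other libraries. One side is the pair of peak lists whose peak names carry TC, for the fusion TAZ-CAMTA1, and the other is the pair whose peak names carry EV, for the empty vector. The 31280 best-ranked peaks of each of the 4 lists, by the −log10 p of the peak caller, were merged into 37120 regions. Of these, 343 lay in both TC-named lists and neither EV-named list, and 3886 lay in both EV-named lists and neither TC-named list. All peaks of the 14 lists of the series merged into 138757 regions.

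The labels give these lists other constructs than the names of their peaks do. The TC-named lists are labelled CAMTA1, the full-length fusion partner, and the EV-named lists are labelled TAZ4SA, an active form of TAZ in which serines are replaced by alanine. Which naming is right is not settled by the lists, so every direction below holds for the lists as named and not for a construct. SW872 cells on both sides had been stably transduced with Flag-tagged constructs, as had the cells of the other 5 labels. By the labels, cells had reached 90% confluence 48 h before collection, except those with CAMTA1, which were collected before confluence. The study's ChIP methods give 90% confluence for all constructs and name no such exception. If the lists labelled CAMTA1 did come from cells before confluence, growth and construct cannot be told apart between the sides. Each side had 2 libraries, described in the methods as biological duplicates.

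H3K27ac is the acetylation of lysine 27 on histone H3. Acetyltransferases such as p300 and CBP place it on nucleosomes at active promoters and enhancers, and wide stretches of it often cover clusters of enhancers or strongly transcribed promoters. TAZ and YAP are transcriptional co-activators of the Hippo pathway that reach DNA through TEAD factors. The TAZ-CAMTA1 fusion joins the TEAD-binding end of TAZ to the activating end of CAMTA1 and is the common driver of epithelioid hemangioendothelioma, a vascular sarcoma. Regions are named by their hg19 coordinates only, since no annotation of that build was used here, and neither gene names nor sequences are given.

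At an equal number of peaks the 4 lists did not cover equal amounts of the genome. The kept peaks covered 57.9 Mb in TC-named replicate 1 and 32.1 Mb in TC-named replicate 2. They covered 125.9 Mb in EV-named replicate 1 and 102.2 Mb in EV-named replicate 2. The EV-named lists thus held more sequence than the TC-named lists, with no overlap between the sides. The median kept peak was 1247 and 656 bp wide in the TC-named lists, and 2878 and 2291 bp wide in the EV-named lists. The other 10 lists of the series, taken to the same number of peaks where they held that many, had medians between 486 and 1427.5 bp, below both EV-named lists.

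The median fold enrichment at the summit, over the local background, was 5.16 and 4.65 in the TC-named lists. It was 9.44 and 9.08 in the EV-named lists. On the log2 scale the mean of the medians in the TC-named lists minus that in the EV-named lists was −1.51 for width and −0.92 for fold enrichment, a ratio of the EV-named to the TC-named lists of 2.84 for width and 1.89 for fold enrichment. The sides did not overlap in either measure. An exact two-sided permutation test gave p = 0.333 for each (adjusted p = 0.333 over 3 tests), the smallest value that 2 lists against 2 allow. Over all peaks of each list the direction was not kept. The median widths were then 758 and 656 bp in the TC-named and 731 and 639 bp in the EV-named lists, a log2 difference of 0.045, and the log2 difference in fold enrichment was 0.13.

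The number of fragments behind a summit was recovered from the fold enrichment and p-value of each peak. The median over the kept peaks was 23 and 13 fragments in the TC-named lists and 35 and 25 in the EV-named lists. The median local background was 3.32 and 2.02 fragments in the TC-named lists and 2.46 and 1.74 in the EV-named lists. EV-named replicate 2 had the lowest background of the 4 and more fragments at its summits than either TC-named list. The kept peaks were 31.6% of that list, beside 65.2% of TC-named replicate 1 and 100% of TC-named replicate 2. The part of the difference in enrichment between the sides in the region counts below was not tested.

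**Figure D1:**
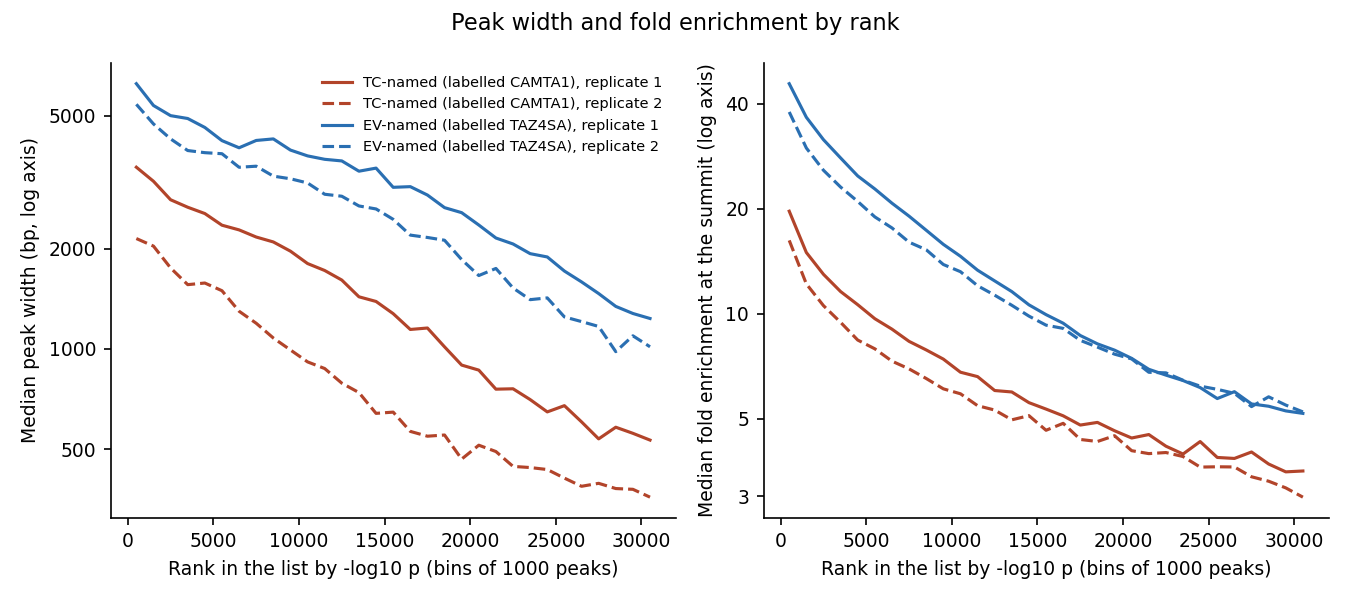
Median peak width (bp, left) and median fold enrichment at the summit (right), both on log axes, in bins of 1000 peaks along each list's rank by −log10 p. Red lines are the TC-named lists and blue lines the EV-named lists, solid for replicate 1 and dashed for replicate 2, and at every rank drawn both blue lines lie above both red lines.

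The rank at which the lists were cut lay at different strengths. The last kept peak had a −log10 p of 5.65 in TC-named replicate 1, 9.20 in EV-named replicate 1 and 8.53 in EV-named replicate 2. The next peak had the same value in each of these 3 lists, with 195, 74 and 78 tied peaks left out. TC-named replicate 2 held exactly 31280 peaks and ended at a −log10 p of 3.33, so nothing was left out of it. The full lists held 47974 peaks in TC-named replicate 1, 102009 in EV-named replicate 1 and 98992 in EV-named replicate 2. A region could therefore count as absent from an EV-named list while a peak of moderate strength lay there, whereas absence from TC-named replicate 2 meant that no peak was called.

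Of the 37120 merged regions, 15591 had a peak in all 4 lists, which is 42.0%. The regions in both TC-named lists only made up 0.924% of all merged regions, and those in both EV-named lists only made up 10.5%. Presence in 3 lists was most often a lack of TC-named replicate 2 alone, in 3232 regions, against 806 that lacked TC-named replicate 1 alone. There were 174 regions that lacked EV-named replicate 1 alone and 373 that lacked EV-named replicate 2 alone. Peaks of 1 list alone numbered 2075 and 1822 regions for the TC-named lists and 4916 and 2294 for the EV-named lists.

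**Figure D2:**
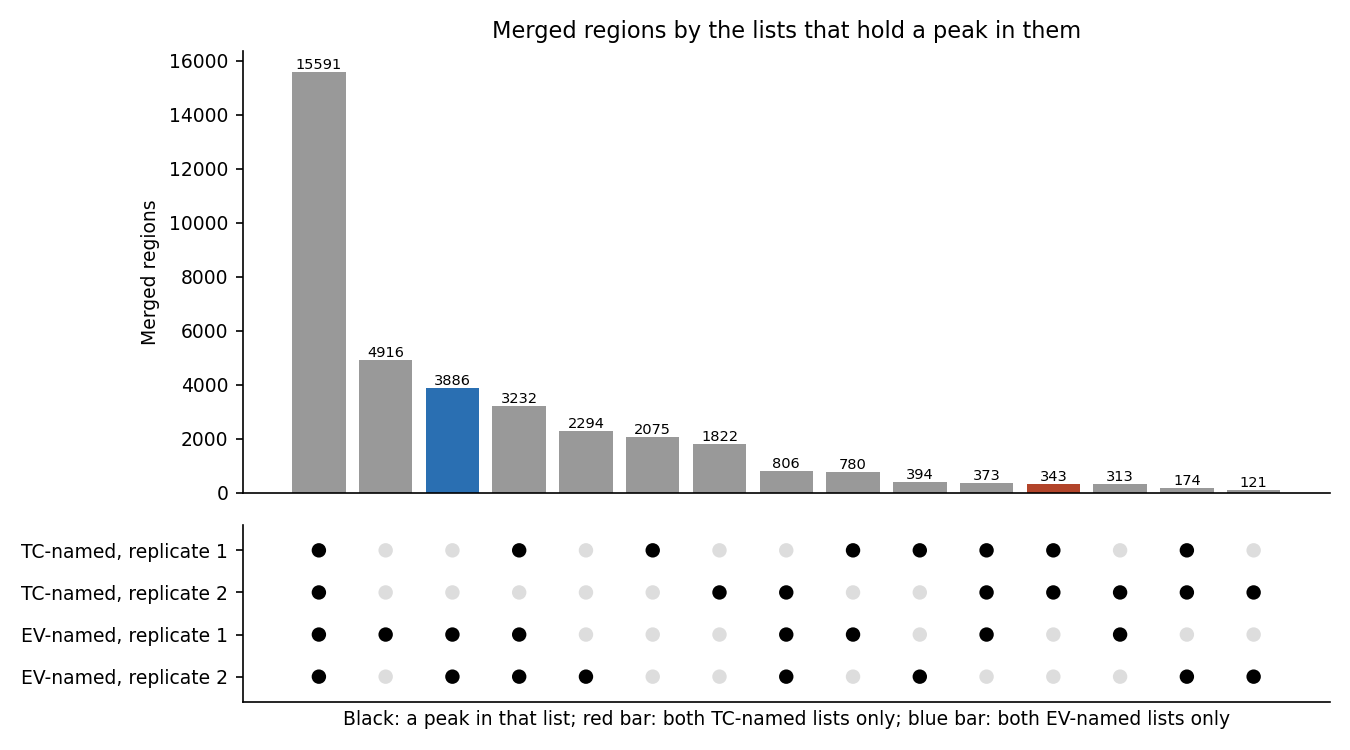
Number of merged regions (vertical axis) for each combination of lists that hold a peak in them, marked by black dots below the bars. The red bar is the 343 regions of both TC-named lists only, the blue bar the 3886 regions of both EV-named lists only, and the tallest bar the 15591 regions of all 4 lists.

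Overlap in bp was not simply higher within a side than between sides. The Jaccard index, the bp in both lists over the bp in either, was 0.451 between the TC-named lists and 0.671 between the EV-named lists. Between the sides it was 0.420 and 0.485 for TC-named replicate 1 against EV-named replicates 1 and 2. For TC-named replicate 2 it was 0.241 and 0.288. TC-named replicate 1 thus had a higher index with EV-named replicate 2 than with the other library of its own side. The index is limited where lists cover unequal bp, so a low value need not mean little shared sequence. TC-named replicate 2 covered 32.07 Mb and shared 30.7 Mb with EV-named replicate 1 and 30.03 Mb with EV-named replicate 2. It shared 27.95 Mb with TC-named replicate 1, which covered less of the genome than either EV-named list.

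The regions in both TC-named lists only were narrow and ranked low among the kept peaks. Their median width was 947 bp, from 285 to 3584 bp, and 185 of 343 (53.9%) were narrower than 1000 bp. Their best ranks were 4672 in TC-named replicate 1 and 4161 in TC-named replicate 2, and their median ranks 21711 and 22028. The median fold enrichment was 4.25 and 4.06, behind which stood a median of 18 and 11 fragments at the summit. In all they covered 0.362 Mb.

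Below the cut, the EV-named lists held a peak at most of these regions. EV-named replicate 1 had one at 277 of 343 (80.8%), at a median rank of 45263, and EV-named replicate 2 at 238 (69.4%), at a median rank of 50712. At least 1 of the lists had a peak at 303 regions, both had one at 212 and neither at 40. The median fold enrichment of these lower peaks was 3.82 and 4.01, beside 4.25 and 4.06 in the TC-named lists. Of the 212 regions with a peak in all 4 full lists, the fold enrichment was lower in both EV-named lists than in both TC-named lists at 59 (27.8%), and higher in both at 30 (14.2%). At the other regions the sides overlapped in fold enrichment. The rank cut, set separately in each list, thus also placed regions on the TC-named side whose fold enrichment did not separate the sides. For comparison, at the 15591 regions kept in all 4 lists the fold enrichment was higher in both TC-named lists at 25 (0.160%). It was higher in both EV-named lists at 14432 (92.6%).

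The region with the best worse rank of its 2 libraries was chr19:45275451-45277454. It ranked 9223 and 9481 in the TC-named lists, with folds of 8.29 and 6.33. In the EV-named lists it ranked 32684 and 31425, just past the cut, with folds of 5.03 and 5.22. It was also in 8 of the other 10 lists. A second region of the 10 best, chr19:45277780-45280771, began within 1 kb of it. That neighbour ranked 8918 and 12375 in the TC-named lists and 31947 and 48642 in the EV-named lists. At both regions the EV-named lists thus held peaks of lower rank.

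The second best, chr2:233250118-233251948, separated the sides more clearly. It ranked 9648 in TC-named replicate 1 and 4161 in TC-named replicate 2, the best rank of any TC-named-only region in that list. Its folds there were 6.78 and 9.75, from 34 and 23 fragments. In the EV-named lists it stood at ranks 63278 and 77886 with folds of 3.47 and 2.97. It lay 161612 bp from the nearest region of all 4 lists, and 5 of the other 10 lists held it.

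The third, chr20:35829903-35830715, ranked 10678 and 11696 with folds of 6.55 and 5.31, against ranks 71002 and 88337 and folds of 3.14 and 2.87 in the EV-named lists. It was in 7 of the other 10 lists, among them both labelled empty vector, whose peak names carry CAMTA1. A narrower region at chr1:202508483-202508966, 484 bp wide, ranked 13069 and 6226 with folds of 6.59 and 8.13. EV-named replicate 1 held it at rank 32239 with a fold of 5.03, and EV-named replicate 2 at rank 82240 with a fold of 3.30. The EV-named libraries thus stood far apart from each other at this region.

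Among the 10 best, 1 had no peak anywhere in the EV-named lists, chr17:10167940-10168694. It ranked 12504 and 12786, with folds of 6.17 and 4.87 from 26 and 17 fragments. Both lists labelled empty vector and the list labelled YAP5SA replicate 2 held it too, with CAMTA1 and TFE3 in their peak names. The region chr16:24359395-24361222 had a peak in EV-named replicate 1, at rank 37014, and none in EV-named replicate 2. It ranked 9461 and 13167 in the TC-named lists with folds of 7.29 and 5.03.

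The other 3 of the 10 were chr18:7616247-7618729, chr3:12699778-12701352 and chr5:137169525-137170818. Their ranks in the TC-named lists lay between 9949 and 13371. The folds of chr5:137169525-137170818 were 4.06 and 4.16 in the TC-named lists and 3.68 and 3.26 in the EV-named lists, and 9 of the other 10 lists held it. The region on chromosome 18 was also the widest by its narrower peak, 2483 bp in TC-named replicate 1 and 1451 bp in TC-named replicate 2. The next widest were chr1:12507995-12510854, with peaks of 2860 and 1398 bp, and chr17:57169861-57172534, with peaks of 1888 and 1312 bp.

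The regions in both EV-named lists only were wider and had higher folds than those of the TC-named side, as the EV-named lists did as a whole, and they too ranked low among the kept peaks. Their median width was 2415 bp, from 299 to 16777 bp. There were 396 (10.2%) wider than 5000 bp, a width that no TC-named-only region reached, and 353 (9.08%) narrower than 1000 bp. The median over all merged regions was 2552 bp. Their best ranks were 4442 and 1595 and their median ranks 21130 and 22783. The median fold enrichment was 6.92 and 6.60, behind which stood a median of 25 and 17 fragments. On both sides these folds were below the medians of the lists themselves, 9.44 and 9.08 for the EV-named and 5.16 and 4.65 for the TC-named lists. The widest peak at these regions had a median of 2119 and 1467 bp, also below the list medians of 2878 and 2291 bp. In all they covered 10.9 Mb.

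In the full list of TC-named replicate 1, 1273 of the 3886 (32.8%) had a peak below the cut, at a median rank of 37774 and a median fold of 3.10. The other 2613 (67.2%) had no peak in either TC-named list. TC-named replicate 2 had no peaks below the cut to search. The peaks in TC-named replicate 1 had a median width of 456 bp, beside 2119 and 1467 bp in the EV-named lists at all 3886 regions.

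The best-ranked region of this side was chr12:132111079-132112333. It ranked 4442 in EV-named replicate 1 and 1595 in EV-named replicate 2, with folds of 14.3 and 20.9 from 126 and 102 fragments. No peak stood there in either TC-named list, and of the other 10 lists only TAZ-CAMTA1 replicate 2 by label, whose peak names carry TAZ4SA, held it. The peak was narrow for its strength, at 1247 and 1243 bp, while the next 3 regions had peaks of more than 5000 bp in both lists.

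The second, chr11:117691435-117702461, was 11027 bp wide and ranked 6147 and 4908 with folds of 19.3 and 19.8. It had no peak in the TC-named lists and lay 419744 bp from the nearest region of all 4 lists. By label, both TAZ-CAMTA1 lists, YAP5SA replicate 2 and TFE3 replicate 2 held it, with TAZ4SA, TFE3 and YT in their peak names. The third, chr18:52761920-52772869, ranked 7123 and 6863 with folds of 20.8 and 18.2. It was also the widest by its narrower peak, with peaks of 10609 and 10735 bp. TC-named replicate 1 held it just below the cut, at rank 32780 with a fold of 3.42, and 9 of the other 10 lists held it.

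The region chr20:38331870-38338709 ranked 5518 and 7319 with folds of 20.7 and 15.9 and had no peak in the TC-named lists. Similar absence held for chr7:101928791-101930965, with ranks of 7546 and 8138, for chr9:13585762-13589883, with ranks of 9799 and 9434, and for chr1:178511013-178513245, with ranks of 7948 and 9959. The last of these was in 8 of the other 10 lists and the one on chromosome 9 in 2 of them. The 10 regions of this side with the best worse rank were held by between 1 and 9 of the other 10 lists.

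The remaining 3 of the 10 had a weak peak in TC-named replicate 1. The region chr8:103576077-103583242 had folds of 21.7 and 15.3 in the EV-named lists and 2.62 in TC-named replicate 1, at rank 38704. The region chr5:176783295-176788001 had folds of 21.4 and 14.3 against 3.44, at rank 36685. The region chr11:43962818-43965415 had folds of 15.6 and 12.3 against 2.69, at rank 34602. No peak was listed at any of these in TC-named replicate 2. By the narrower of the 2 peaks, the widest after the region on chromosome 18 were chr22:30694620-30703658, with peaks of 9039 and 8477 bp, and chr5:36383695-36395501, with 8331 and 8523 bp.

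On both sides, one-side regions were more frequent at worse ranks, nearer the cut that chose them. A region ranked near the cut in one list can fall just past it in another, so the rule itself favours such a rise. Of the 16481 regions in both TC-named lists, 2.08% had no EV-named peak among the 31280 kept per list, and of the 23515 in both EV-named lists 16.5% had no kept TC-named peak. Where the worse of the 2 ranks was 10000 or better, 2 of 7349 regions were on the TC-named side only (0.0272%) and 10 of 8546 on the EV-named side only (0.117%). Between ranks 10001 and 20000 the shares were 1.21% and 9.98%. Beyond rank 20000 they were 7.60% and 45.2%. This last bin held 274 of the 343 (79.9%) and 3057 of the 3886 (78.7%). The 2 TC-named-only and 10 EV-named-only regions of the first bin are all among those named above.

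**Figure D3:**
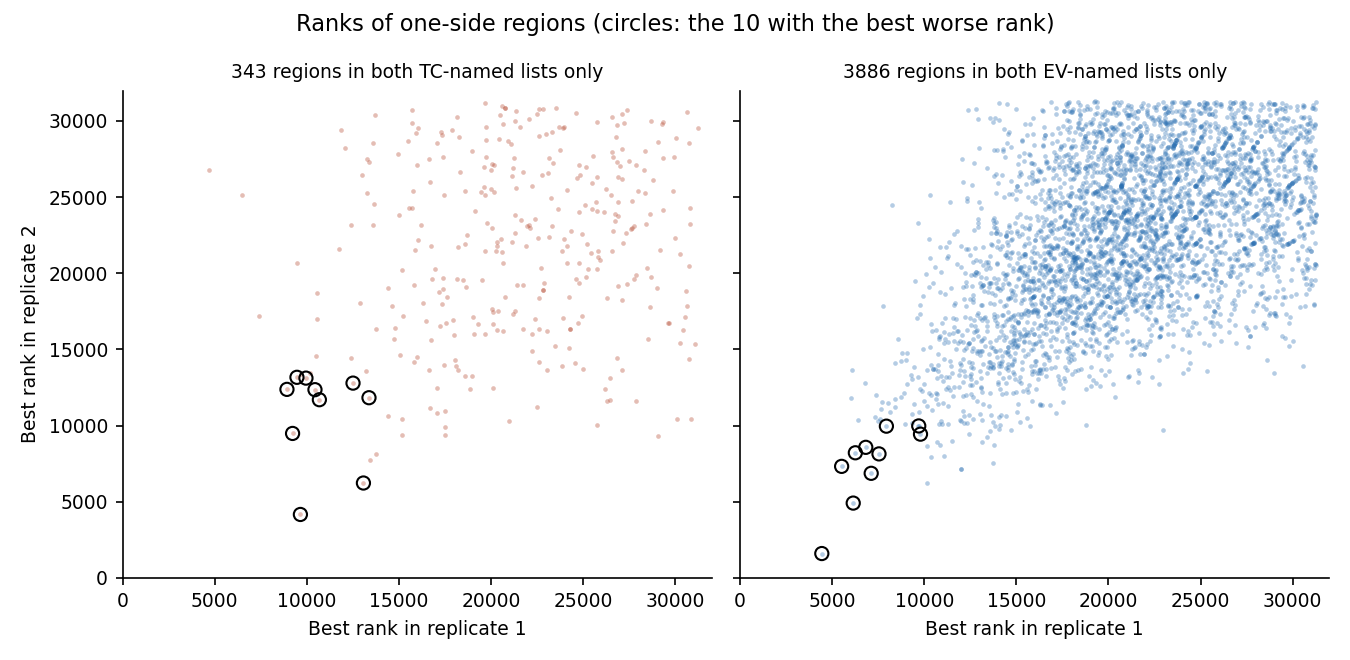
Best rank in replicate 1 (horizontal) against best rank in replicate 2 (vertical) for each of the 343 TC-named-only regions (left, red) and the 3886 EV-named-only regions (right, blue). Black circles mark the 10 regions of each side with the best worse rank. The worse of the 2 ranks was beyond 20000 at 274 of the 343 and at 3057 of the 3886 regions.

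The regions of each side were also counted by chromosome, beside all merged regions. The TC-named-only share differed from that of all merged regions by more than 2 percentage points on 6 chromosomes. It was higher on chromosome 3, with 9.04% (31 regions) against 5.87%, on chromosome 1, with 11.95% (41) against 9.003%, and on chromosome 2, with 9.91% (34) against 7.61%. It was lower on chromosome 19, with 2.04% (7) against 4.33%, on chromosome 11, with 3.21% (11) against 5.36%, and on chromosome 7, with 3.21% (11) against 5.28%. For the EV-named-only regions the shares on chromosomes 3, 1 and 2 were 5.46%, 8.26% and 7.51%, and those on chromosomes 19, 11 and 7 were 4.55%, 5.20% and 4.81%. The largest differences of that side, in percentage points, were on chromosome 10, with 4.86% against 3.85% of all regions, and on chromosome 20, with 4.30% against 3.54%. A difference in percentage points favours chromosomes with many regions. Counted within each of the autosomes and X, the TC-named-only share was highest on X, with 15 of 1012 regions (1.48%). It was lowest on chromosome 18, with 2 of 779 (0.257%), beside 0.924% of all merged regions. The TC-named shares rest on small counts, the sets differ in size, and no test was made of the shares of either side or between the sides.

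Both sets lay at similar distances from the regions of all 4 lists. The median distance to the nearest was 22353 bp for TC-named-only regions and 25841 bp for EV-named-only regions, beside 19239 bp for all regions missing from at least 1 list. Within 1000 bp lay 8.75% and 8.49%, beside 10.9%. Within 10000 bp lay 29.2% and 29.8%, beside 36.6%. By these measures neither set lay closer to the shared regions than the regions missing from at least 1 list did as a whole.

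Neighbouring regions of one side were more frequent among the EV-named. Joined at gaps of up to 50 kb, 1510 of the 3886 (38.9%) fell into 624 runs of 2 or more, and 53 of the 343 (15.5%) into 24 runs. The denser set has closer neighbours for its number alone, so the shares are not compared further. The run with most EV-named-only regions held 9 within chr20:38216342-38431654, which covered 38253 of its 215313 bp. It included the region on chromosome 20 named above and, of 13 merged regions there, 1 was in all 4 lists. The next held 8 within chr6:46960525-47117710, from 2904 to 8635 bp wide, again with 1 region of all 4 lists among 13. In full the EV-named lists had 38 and 30 peaks in the stretch on chromosome 20, covering 63962 and 37664 bp, and the TC-named lists 5 and 2, covering 4959 and 1012 bp. On chromosome 6 they had 41 and 48 peaks against 15 and 5.

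The run with most TC-named-only regions held 5 within chr14:96571333-96634482, of 6 merged regions in that stretch and none in all 4 lists. These 5 were 794 to 2503 bp wide and ranked from 10162 to 25795 in replicate 1 and from 13440 to 28689 in replicate 2. The next held 3 within chr1:202501962-202539424, 1 of them the narrow region on chromosome 1 described above, and no other merged region lay between them. On chromosome 14 the TC-named lists each had 6 peaks, covering 9975 and 4560 bp with folds of up to 7.81 and 5.06. The sixth region was in both of them too and in EV-named replicate 2, at rank 29708. In full the EV-named lists each had 4 peaks there, covering 2766 and 2131 bp with folds of up to 5.03 and 5.67. On chromosome 1 the TC-named lists each had 3 peaks, while EV-named replicate 1 had 5 below its cut, the best at rank 32239, and EV-named replicate 2 had 1.

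At the 15591 regions of all 4 lists the sides differed in the same direction as the one-side counts. The median fold enrichment was 7.68 and 6.10 in the TC-named lists and 17.3 and 14.7 in the EV-named lists. It was higher in both EV-named lists than in both TC-named lists at 14432 regions (92.6%), and lower in both at 25 (0.160%). The median bp covered per region was 2222 and 1266 in the TC-named lists and 4296 and 3671 in the EV-named lists, with more in both EV-named lists at 13671 regions (87.7%). Ranks, which do not carry the overall level of a list, were more even, being better in both EV-named lists at 4757 regions (30.5%) and in both TC-named lists at 3348 (21.5%). The wider and stronger peaks of the EV-named lists were therefore found at regions common to both sides and not at one-side regions alone.

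The other 10 lists, which the choice of regions did not use, held the TC-named-only regions more often than the EV-named-only ones. Taken to their 31280 best peaks or to all peaks in shorter lists, they held a median of 38.6% of the TC-named-only regions, from 0.292% to 59.5%. Of the EV-named-only regions they held a median of 24.5%, from 0.103% to 36.7%, and of all merged regions a median of 54.3%. The mean shares were 36.5% and 22.005%, a difference of 14.5 ± 10.8 percentage points (SD, n = 10 lists). The share was higher for the TC-named-only regions in 9 of 10 lists. The sets differed in width, with medians of 947 and 2415 bp, and the part of width in the shares was not tested. An exact two-sided sign-flip permutation test over the 10 lists gave p = 0.00586 (Benjamini-Hochberg adjusted p = 0.0176 over 3 tests). The test counts the 2 libraries of a label as separate lists. The TC-named-only regions were chosen for presence in the TC-named lists and the EV-named-only regions for absence from them. The part of this choice in the shares was not tested, and the direction of the difference turned over under some choices given below.

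The highest shares of TC-named-only regions were in the lists labelled YAP-TFE3, whose peak names carry YAP5SA, with 59.5% and 49.0%. In the same lists 25.9% and 23.1% of the EV-named-only regions had a peak. The lists labelled empty vector, whose peak names carry CAMTA1, held 39.9% and 44.3% of the TC-named-only regions. They held 21.0% and 26.4% of the EV-named-only regions. The exception was replicate 2 of the label TAZ-CAMTA1, with 36.2% and 36.7%. That list, whose peak names carry TAZ4SA, also had 65.1 Mb in its kept peaks, the second most of the 10. The list with the most, 67.4 Mb, was YAP-TFE3 replicate 1 by label. It had the largest difference in favour of the TC-named-only regions, 33.6 percentage points. The part of coverage in the shares was not tested. Replicate 1 of the label TFE3 held only 5721 peaks and under 1% of either set. A TC-named-only region was in a median of 4 of the other 10 lists and an EV-named-only region in a median of 2. Over all 37120 merged regions the median was 5 lists and the lower quartile 1. In no other list were 48 TC-named-only (13.99%) and 1151 EV-named-only regions (29.6%).

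This difference turned over under some choices. With the sets rebuilt without TC-named replicate 1 the difference was −24.3 percentage points, and without TC-named replicate 2 it was −5.44, both opposite in direction. The same exact permutation test gave p = 0.00195 (adjusted p = 0.00586) for the first of these and p = 0.0781 (adjusted p = 0.234) for the second. The p over the 10 lists thus does not cover how the sets are defined, and the direction of the difference is not settled. Without an EV-named library it was 22.3 and 29.3. With the 2 libraries of a label flipped together the difference stayed at 14.5. The permutation p was then 0.0625 (adjusted p = 0.1875), the smallest that 5 labels allow, so this choice could not pass the threshold. Leaving out a TC-named library changed both the presence asked of the TC-named-only regions and the absence asked of the EV-named-only regions, and the parts of these changes were not separated.

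**Figure D4:**
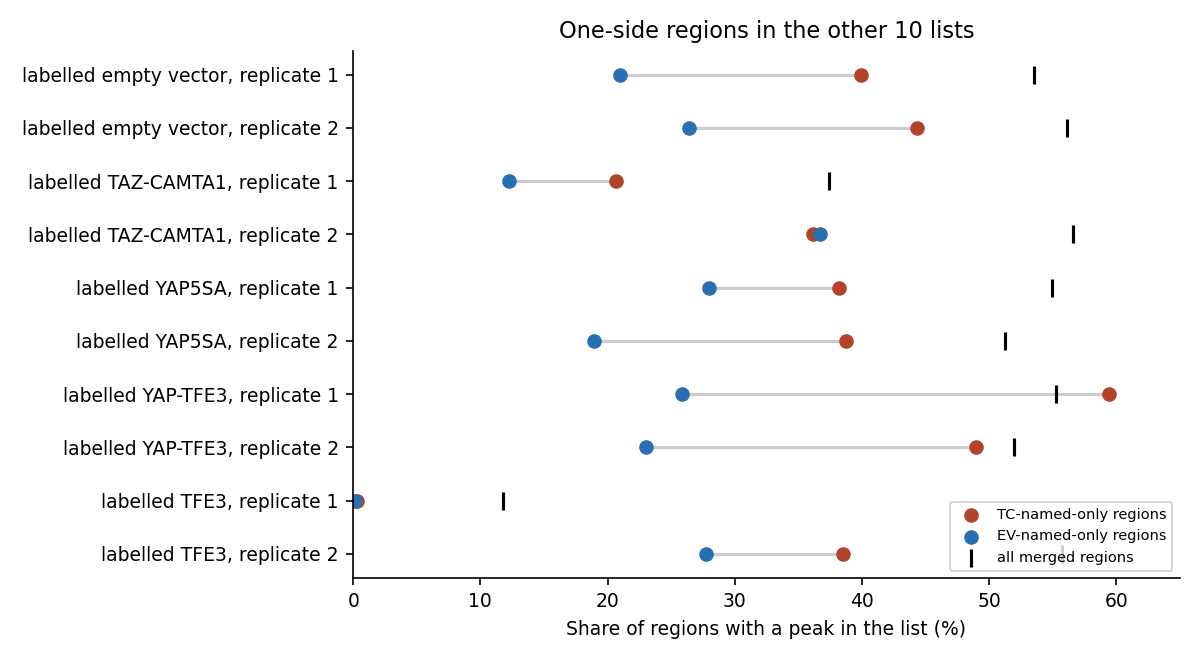
Share of regions (%, horizontal) with a peak in each of the other 10 lists, named by label and replicate. Red points are the 343 TC-named-only regions, blue points the 3886 EV-named-only regions and black bars all 37120 merged regions, and red lies to the right of blue in 9 of 10 lists.

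The balance of the counts depended on how peaks were chosen. With all peaks of each list there were 67 TC-named-only and 23876 EV-named-only regions. With 10000 peaks per list there were 430 and 843, and with 5721 peaks, the length of the shortest list of the series, 411 and 594. With peaks replaced by summits extended 500 bp each way there were 2393 and 3942. Without TC-named replicate 1 the counts were 2243 and 7161, and without TC-named replicate 2 they were 2423 and 4692. Without EV-named replicate 1 they were 781 and 8291, and without EV-named replicate 2 they were 517 and 9363. When each list was taken down its rank to an equal 32.1 Mb, a choice added after seeing the data, 4140 and 5068 peaks of the EV-named lists stood against 9638 and 31280 of the TC-named lists. The balance then turned over, to 3982 TC-named-only regions of 24275 (16.4%) and 1 EV-named-only region (0.00412%). That region, chr6:160940504-160942345, had folds of 32.1 and 21.5 in the EV-named lists at ranks 2785 and 5023. Its peak in TC-named replicate 1 had a fold of 6.02 at rank 12963, and TC-named replicate 2 had none. Of the 47 regions named by the rule, runs included, 18 were on their side only when all peaks were used, and 40 when peaks were ranked by fold enrichment.

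**Figure D5:**
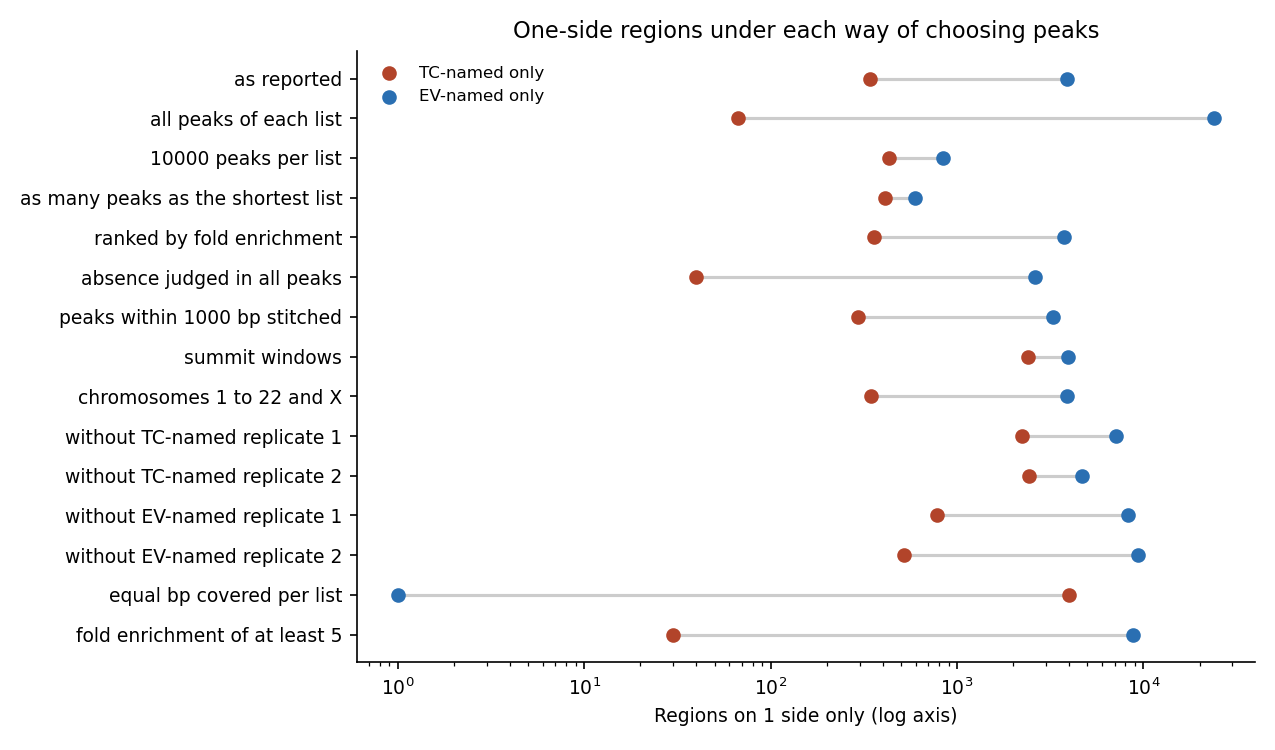
Number of one-side regions (horizontal, log axis) under each way of choosing peaks (rows), red for the TC-named lists only and blue for the EV-named lists only. Blue lies to the right of red in every row but the one with an equal number of bp per list, where the counts are 3982 and 1.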

How the data were processed

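H3K27ac ChIP-seq peak lists of 14 libraries were read, 4 of them for the comparison; 14 input libraries were not analysed here. Per the labels and methods, the authors aligned reads to GRCh37 with BWA and called peaks with MACS2 on paired-end fragments (versions not given in the sources used here). The deposited files give each peak an interval, a summit, a fold enrichment (a ratio over local background), and a −log10 p-value and q-value. The methods state pooled replicates, but the lists are separate per library. Their lowest −log10 q was 1.30, a q of 0.05, which is stricter than the limit in the methods, so a weaker peak may count as absent. Read depth is not given in the lists.

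The members and lists were chosen with earlier results of these data known. Peaks were ranked by −log10 p and merged where they overlapped or touched, and presence was an overlap of at least 1 bp. Summit fragments were solved from fold and p, whole within 0.05 at 99.995% of peaks or more in every list. Named regions were, per side, the 10 with the best worse rank, the 3 widest by the narrower peak, and the regions of the 2 runs with most members. Gene and marker lists needed a GRCh37 annotation and were not used. Tests were exact permutation tests over lists, adjusted by Benjamini-Hochberg. Python 3.11.15, numpy 2.4.6, pandas 2.3.3 and scipy 1.17.1 were used, and the code was tested on simulated data.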

Additional observations from a re-analysis of the deposited data

How the results depend on the processing

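Leaving out 1 of the 4 libraries gave 517 to 2423 TC-named-only and 4692 to 9363 EV-named-only regions, since fewer lists then had to hold or lack a peak. It gave differences between the sides of −1.97 to −1.04 for log2 width, −0.99 to −0.84 for log2 fold enrichment, and −24.3 to 29.3 percentage points for the share in the other 10 lists, which reversed without TC-named replicate 1 (−24.3) or 2 (−5.44). With all peaks of each list the counts were 67 and 23876, and the width and fold differences reversed to 0.045 and 0.13. EV-named-only regions numbered 843 with 10000 peaks per list and 594 with 5721. TC-named-only regions numbered 40 with absence judged in all peaks and 2393 with peaks replaced by summits extended 500 bp each way. Choices added after seeing the data gave 3982 and 1 regions (equal bp per list) and 30 and 8750 (a fold of at least 5). The share difference stayed at 14.5 with labels flipped as pairs, where p was 0.0625 (permutation). Causes were not tested beyond these constructions. With the replicate number as a block the width and fold differences stayed at −1.51 and −0.92, with an exact p of 0.5, the smallest possible. The labels do not say that the numbers pair the lists, and deviations of log2 rank in the regions of all 4 lists correlated at −0.00825 between replicates 1 of the sides. With 10000 peaks per list the share difference was 28.3 percentage points. Of the 47 named regions, 12 were on their side only with 10000 peaks per list, 1 with 5721 and 3 with equal bp. For the region counts and the width, fold and share differences, the other alternatives kept the direction and the counts stayed within 1.5 times. No list gives read depth, so absence of a peak is not absence of acetylation.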

Other observations

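Among the 15591 regions of all 4 lists, those that moved most in rank between the sides were looked up after their values were seen. The region chr2:12067973-12074911 ranked 2793 and 5537 in the EV-named lists and 26178 and 28517 in the TC-named lists. Its folds were 29.5 and 19.997 against 3.92 and 3.31, and the bp covered by peaks were 6939 and 4807 against 571 and 453. Only 2 of the other 10 lists held a peak there. In the other direction, chr3:183382431-183384023 ranked 6482 and 8701 in the TC-named lists and 28193 and 29627 in the EV-named lists. Its folds were 10.3 and 6.91 against 5.66 and 5.47, and the bp covered were 1252 and 542 against 902 and 519. Its gap in fold was narrower than that at the region on chromosome 2, and in bp covered the sides overlapped.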
